A study of Mus musculus with 14 samples.

Results

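H3K4me1 sites in first introns are the regions of monomethylated histone H3 lysine 4 whose centre lay over 3 kb from every transcriptional start site (TSS) and inside the intron that follows the first exon of the longest transcript of a protein-coding gene. The rule used positions only: 17575 of 160144 sites, or 10.97% of the set, were members. A further 32547 sites, 20.3% of the set, lay over 3 kb from every TSS in later introns and served as the comparison. The cells were NG3, a single clone of immortalized mouse embryo fibroblasts (iMEF) with floxed Ash2l alleles, in which exon 4 of endogenous Ash2l had been deleted through Cre-ER and a lentiviral FKBP12F36V-tagged human ASH2L kept the cells growing. The untreated control cells carried the deletion and the tagged protein as well. dTAG, which brings the FKBP12F36V tag to a ubiquitin ligase, was given for 30 min, 2, 4, 8 or 16 h, and each of these conditions and the control had 2 replicates, which made 12 H3K4me1 libraries beside 2 input libraries (control and 16 h). The deposited table joins all conditions in 1 set of sites. It holds no value per library, so the read depth behind a site is unknown, the time course cannot be read from it, and, with no expression values, the cell type was not checked by markers.

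H3K4me1 is laid down by the MLL/KMT2 methyltransferase complexes (COMPASS), of which ASH2L is a core subunit, and it is best known as a mark of enhancers, the distal elements that bind transcription factors and act on promoters. The first intron begins next to the promoter and is often the longest intron of a gene, and many known enhancers lie in it. In fibroblasts, AP-1 (FOS/JUN dimers), TEAD and RUNX proteins are among the factors known to bind such elements.

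The sequences below show how matches to TGANTCA, the pattern used for AP-1, sat in first-intron sites of the genes that held the most sites. Each is the central 200 bp of the site with the most matches in that first intron or, where several tied, of the tied site nearest to the TSS of the gene, read 5′ to 3′ on the plus strand of GRCm38 (mm10), with bases that match TGANTCA in capitals. All lay in intron 1, and the window of Cmss1 and Filip1l is shared because these introns overlap.
Ext1, chr15:53330787-53330986: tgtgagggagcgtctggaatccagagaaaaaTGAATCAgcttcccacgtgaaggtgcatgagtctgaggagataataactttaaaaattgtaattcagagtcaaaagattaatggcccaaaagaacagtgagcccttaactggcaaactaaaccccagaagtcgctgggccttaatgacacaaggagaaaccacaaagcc
Magi1, chr6:94275244-94275443: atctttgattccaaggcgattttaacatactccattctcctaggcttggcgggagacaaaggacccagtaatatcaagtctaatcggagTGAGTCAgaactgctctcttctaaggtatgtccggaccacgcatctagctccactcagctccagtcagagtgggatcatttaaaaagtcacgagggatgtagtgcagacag
Maml2, chr9:13314888-13315087: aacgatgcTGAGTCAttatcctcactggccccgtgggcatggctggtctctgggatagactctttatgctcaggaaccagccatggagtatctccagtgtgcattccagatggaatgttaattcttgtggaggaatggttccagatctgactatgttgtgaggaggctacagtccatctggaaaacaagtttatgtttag
Cmss1 and Filip1l, chr16:57453079-57453278: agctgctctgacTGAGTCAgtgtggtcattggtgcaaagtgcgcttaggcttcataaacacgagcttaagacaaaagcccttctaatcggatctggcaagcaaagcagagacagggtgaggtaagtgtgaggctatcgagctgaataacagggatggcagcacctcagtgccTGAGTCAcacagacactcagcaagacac
Rora, chr9:68970080-68970279: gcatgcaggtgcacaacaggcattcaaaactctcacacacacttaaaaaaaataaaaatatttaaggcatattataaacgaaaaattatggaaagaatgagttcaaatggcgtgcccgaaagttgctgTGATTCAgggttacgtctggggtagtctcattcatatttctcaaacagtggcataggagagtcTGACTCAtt
Fmnl2, chr2:52938370-52938569: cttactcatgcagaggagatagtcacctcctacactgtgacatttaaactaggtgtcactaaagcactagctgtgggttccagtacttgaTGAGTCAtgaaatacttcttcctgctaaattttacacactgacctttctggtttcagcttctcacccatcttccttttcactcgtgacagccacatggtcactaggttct
Asap1, chr15:64295470-64295669: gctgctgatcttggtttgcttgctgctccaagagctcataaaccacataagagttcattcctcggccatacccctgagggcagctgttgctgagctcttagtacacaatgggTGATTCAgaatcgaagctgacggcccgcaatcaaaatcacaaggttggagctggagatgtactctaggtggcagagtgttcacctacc
Phlpp1, chr1:106213363-106213562: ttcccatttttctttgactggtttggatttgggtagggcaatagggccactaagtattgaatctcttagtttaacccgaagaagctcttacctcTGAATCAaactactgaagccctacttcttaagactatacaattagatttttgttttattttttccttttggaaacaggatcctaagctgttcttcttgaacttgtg
The windows of Rora and of Cmss1 and Filip1l held 2 matches each, and the others held 1. N stands for any base. The match of Ext1 and of Phlpp1 was TGAATCA, and that of Asap1 and 1 of the 2 in Rora was TGATTCA. The other matches were TGAGTCA or TGACTCA. The windows were picked for their match and are examples, not a sample of all sites.

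The sites were denser in first introns than in later ones. Bases over 3 kb from every TSS (eligible bases, the only ones where a centre could count) amounted to 162.3 Mb of first introns and 496.6 Mb of later introns, so first introns made up 24.6% of eligible intron and held 35.1% of the intronic sites (95% Wilson interval 34.6 to 35.5%). This gave 10.8 sites per 100 kb in first introns against 6.55 in later introns, a ratio of 1.65 (95% interval 1.62 to 1.68). Intervals here and below cover the counting of sites only, neighbouring sites are not independent, and with 1 pooled set of sites no test over replicates was possible. Sites covered 10.6% of eligible first-intron bases and 5.69% of those in later introns.

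The direction was the same on each of the 20 chromosomes, 1 to 19 and X. The ratio was lowest on chromosome 18, at 1.27 (1.16 to 1.40), and highest on chromosome X, at 2.89 (2.47 to 3.38), with a median of 1.68. Chromosome X had few sites in either class, with 3.88 per 100 kb in first introns and 1.34 in later introns. Among the autosomes, first introns were densest on chromosome 15, at 15.1 sites per 100 kb, and sparsest on chromosome 5, at 8.10.

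**Figure D1:**
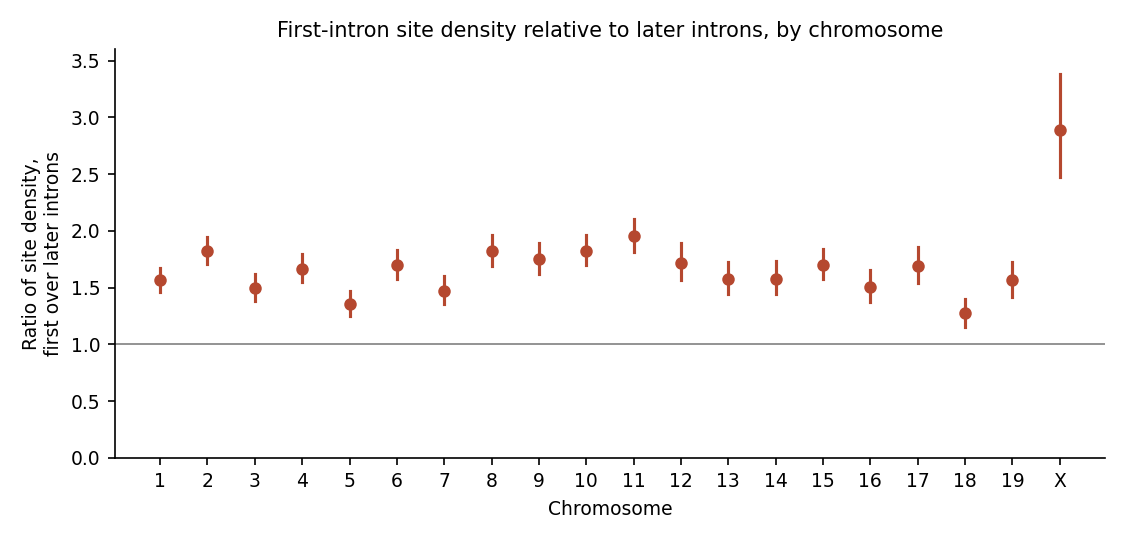
Ratio of H3K4me1 site density, first over later introns, on each chromosome; points are ratios, bars are 95% intervals of the site counts, and the grey line marks equal density. All 20 points lie above the line, from 1.27 on chromosome 18 to 2.89 on chromosome X.

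First introns lie nearer to a TSS than later introns, with the median member 11.4 kb from the nearest TSS (quartiles 6.11 and 22.9 kb) and the median later-intron site 16.2 kb away (7.85 and 33.9 kb), so densities were compared at matched distance. At 3 to 5 kb first introns held 12.5 sites per 100 kb and later introns 6.99, a ratio of 1.79 (1.70 to 1.87). The ratio was 1.75 at 5 to 10 kb, 1.62 at 10 to 20 kb, 1.43 at 20 to 50 kb and 1.26 (1.17 to 1.35) at 50 to 100 kb. Beyond 100 kb it was 1.46 (1.30 to 1.64), on 359 first-intron sites. Later introns stayed between 6.92 and 7.18 sites per 100 kb up to 50 kb, whereas first introns fell from 12.5 to 9.91 over the same classes. Combined over the distance classes, the ratio was 1.595 (Mantel-Haenszel, 1.57 to 1.625).

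Distance to the TSS of the transcript itself separated the classes more up to 50 kb and less beyond. At 3 to 10 kb from it, first introns held 12.3 sites per 100 kb and later introns 5.77, a ratio of 2.13 (2.02 to 2.26). Between 10 and 20 kb the ratio was 2.09, between 20 and 50 kb it was 1.70, and between 50 and 100 kb it was 1.24 (1.18 to 1.29). Over 100 kb away both held about 6 sites per 100 kb, 6.07 in first and 6.03 in later introns, and the ratio was 1.01 (0.960 to 1.06). Without Gm20388, described below, that last ratio was 0.888 (0.843 to 0.936), which turned its direction.

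Density also fell with the rank of the intron. It was 10.7 sites per 100 kb in intron 1, 8.72 in intron 2, 7.34 in intron 3, 6.89 in intron 4 and 5.56 in intron 5. Introns 6 to 10 held 5.90 and introns after the tenth 5.11. The last intron of genes with at least 3 introns held 5.86 sites per 100 kb. These values count an intron of each gene by itself, so a site in overlapping genes counted more than once.

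**Figure D2:**
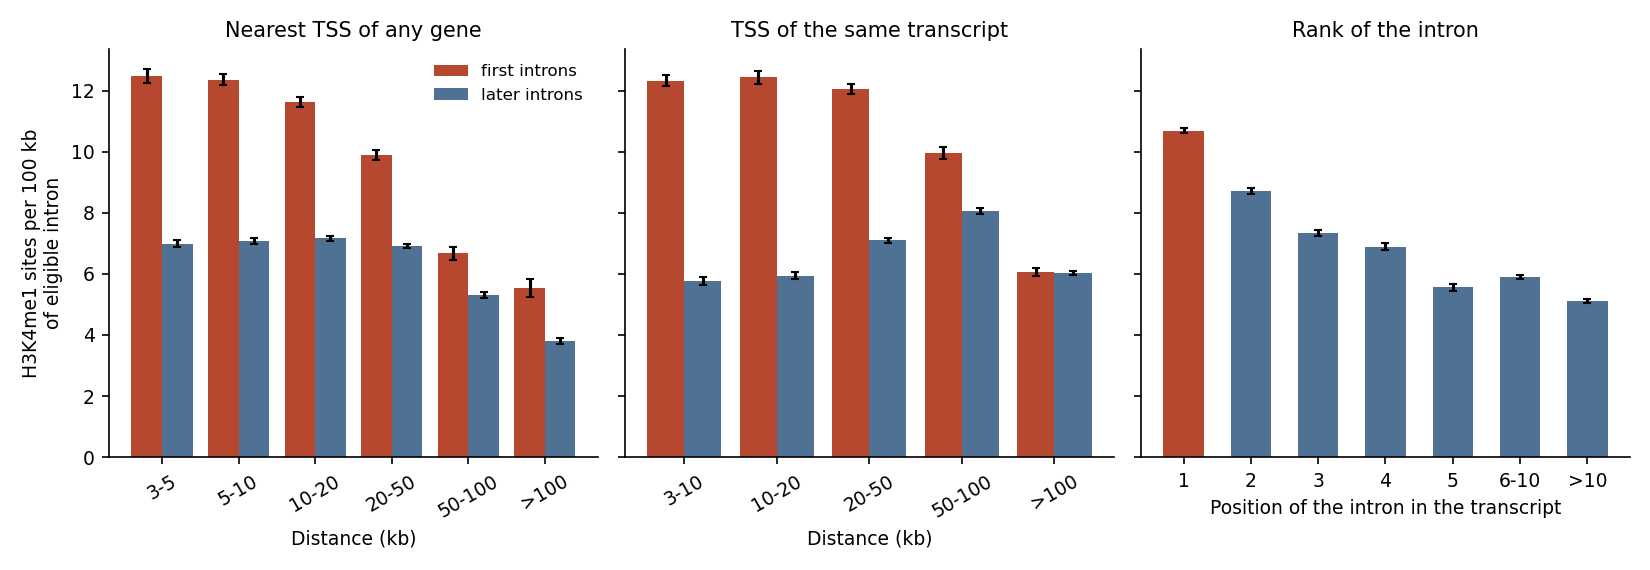
H3K4me1 sites per 100 kb of eligible intron in first (red) and later (blue) introns, by distance to the nearest TSS, by distance to the TSS of the same transcript and by intron rank; bars are densities and error bars are the square root of the site count on the same scale. First introns are denser in every class except over 100 kb from their own TSS, where the 2 bars are level at 6.07 and 6.03 (a ratio of 0.888 without Gm20388).

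Intron length did not remove the difference. First introns under 10 kb held 10.5 sites per 100 kb against 5.40 in later introns of that length, a ratio of 1.94 (1.82 to 2.07). First introns of 20 to 50 kb were the densest class, at 13.8 against 8.13, and first introns over 100 kb the least dense, at 7.22 against 5.44, a ratio of 1.33 (1.28 to 1.38). Without Gm20388 the class over 100 kb held 6.92 per 100 kb in first introns, a ratio of 1.27 (1.22 to 1.325). Within the same length class and distance class the combined ratio was 1.40 (1.37 to 1.43). Comparing first and later introns of the same gene gave 1.52 (1.49 to 1.56), and of the same gene at the same distance 1.503 (1.46 to 1.54). Of 2544 genes with at least 10 kb eligible in both, the first intron was denser in 1435 (56.4%), the later introns were denser in 807 (31.7%) and neither held a site in 302.

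Pooled over first introns of at least 20 kb, density was level along the intron. With the intron cut into 5 equal parts in the direction of transcription, the eligible bases held 10.7, 10.4, 10.25, 10.6 and 10.7 sites per 100 kb. In later introns the same parts ranged from 6.79 to 7.51. The parts differ in length from intron to intron, so these values do not show an even spread within single introns. They stand beside the fall in density with distance from the TSS of the transcript. Neighbouring sites in a first intron were separated by a median gap of 1425 bp, and 42.1% of 14086 such gaps were under 1 kb.

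The median member was 591 bp wide (quartiles 345 and 1132 bp), against 568 bp (337 and 1045 bp) in later introns. The wide end differed more: 262 members (1.49%) were at least 5 kb wide, against 232 later-intron sites (0.713%). The widest member, of 50106 bp at chr15:77791909-77842014, was centred in intron 1 of Myh9, which encodes the non-muscle myosin heavy chain IIA. It was followed by a site of 40381 bp at chr10:60790969-60831349 over the netrin receptor gene Unc5b, one of 26685 bp at chr2:173249166-173275850 over Pmepa1, a TGF-beta-induced inhibitor of that pathway, one of 22313 bp at chr4:137468813-137491125 over the perlecan gene Hspg2, and one of 19095 bp at chr2:180213045-180232139 over the laminin gene Lama5. Members count by their centre: the sites of Myh9 and Lama5 were wider than their first introns, of 28.7 and 4.11 kb, and reached beyond them. Counts and cover differed at the widest sites: Myh9 held 1 site and Pmepa1 held 2, at 4.65 and 5.64 per 100 kb, while 100% and 97.4% of their eligible first intron was covered. Hspg2, at 6.84 per 100 kb, had 96.8% covered, whereas Unc5b, at 12.1, and Lama5, with 1 site in 1.48 kb, were not low by count. Although centres lay over 3 kb away, 826 members (4.70%) reached to within 3 kb of a TSS, and 54 contained one.

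At the 3 kb threshold nothing changed abruptly. Sites in first introns centred 2 to 3 kb from a TSS numbered 2136, with a median width of 582 bp and 13.4 per 100 kb, and the 1665 members at 3 to 4 kb had a median of 602 bp and 12.7 per 100 kb.

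Of 7324 protein-coding genes with at least 1 kb of eligible first intron, 3726 held a site there, which is 50.9% (49.7 to 52.0%). Where there was any, the median was 2 sites and the upper quartile 5, and 1252 genes had exactly 1. At the other end, 459 genes with at least 10 sites held 47.5% of all sites counted by gene, and 120 genes had at least 20. The share with a site rose with eligible length, from 22.0% of genes with 1 to 5 kb to 47.3% at 5 to 10 kb, 62.8% at 10 to 20 kb, 79.6% at 20 to 50 kb and 84.1% at 50 to 100 kb. It was 77.8% (72.7 to 82.2%) in the 293 genes with over 100 kb, which also had the lowest density, 6.65 sites per 100 kb. Over genes with at least 20 kb, 80.4% held a site and the median density was 9.23 sites per 100 kb (quartiles 2.42 and 19.8).

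The gene with the most sites, Gm20388 on chromosome 8, had 409, or 2.33% of the members, because of its gene model. Its annotated intron 1 spanned 4.384 Mb and enclosed 71 other protein-coding genes, and it was the only first intron over 1 Mb. Without it there were 17251 members, 10.8 per 100 kb, and the ratio to later introns was 1.65 (1.62 to 1.68).

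Next came Ext1, which encodes a heparan sulfate polymerase. Its 237 kb intron 1 at chr15:53107572-53344401 held 113 sites, or 50.1 per 100 kb (exact Poisson interval 41.2 to 60.2), with 54.7% of the eligible bases covered, while its later introns held 5 sites, or 14.2 per 100 kb. Magi1, a scaffold protein of cell junctions, had 103 sites at 30.6 per 100 kb, and 27 at 11.2 in later introns. Maml2, a Notch co-activator, had 91 sites at 44.8 per 100 kb, and 18 at 24.1 in later introns. In these genes, which were ranked by their first-intron sites, the first intron was the denser part.

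Fmnl2, a formin, and Asap1, an Arf GTPase-activating protein, held 57 and 49 first-intron sites, or 38.4 and 50.4 per 100 kb. Phlpp1, a phosphatase that acts on Akt, held 45 at 46.1 per 100 kb. Cmss1 held 80 and Filip1l 48, at 31.2 and 31.9 per 100 kb, but their first introns overlap and share sites: 221 members lay in the first intron of more than 1 gene. Rora, a nuclear receptor of the circadian clock, had 61 sites in 534 kb, and at 11.4 per 100 kb it was close to the value over all first introns. Rora and Filip1l were the members of this group in which later introns were denser by count, at 17.9 and 37.2 per 100 kb. By covered bases this held for Rora (9.55% of the first and 18.1% of later introns) but not for Filip1l (28.4% and 28.05%), and Gm20388, with 13.2 against 12.4 sites per 100 kb, had 19.6% covered in its first and 25.6% in its later introns.

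**Figure D3:**
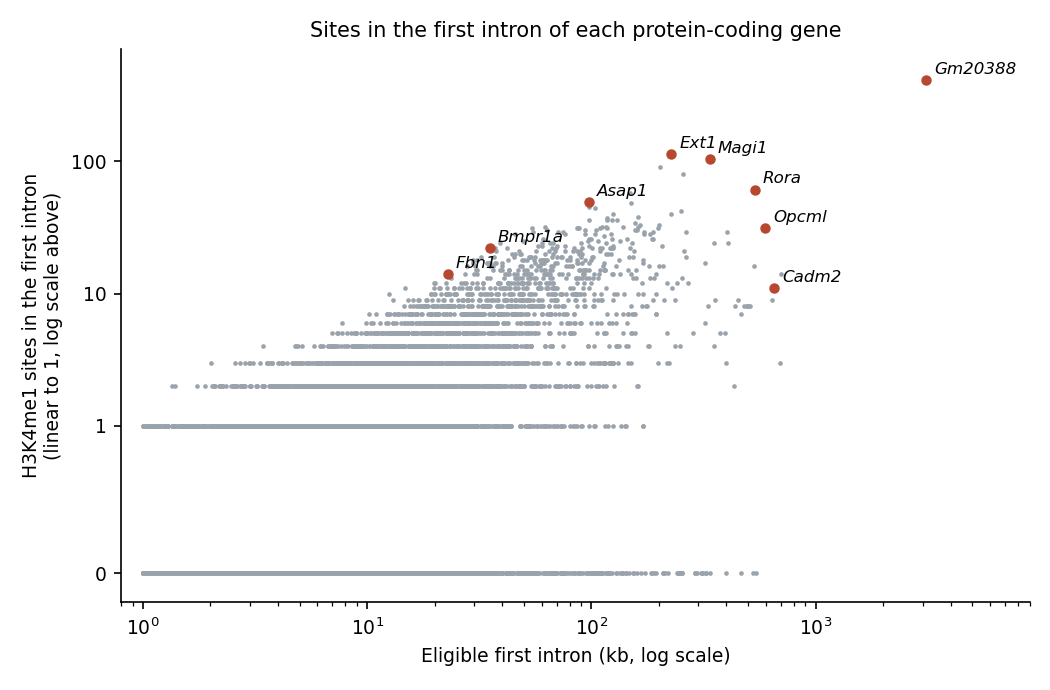
H3K4me1 sites in the first intron of each of the 7324 protein-coding genes with at least 1 kb of eligible first intron, against eligible length in kb (log scale); each point is a gene and named genes are in red. Ext1 holds 113 sites in 226 kb and Opcml 31 in 594 kb, and Gm20388, with 409, stands apart in length.

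Per length, the densest first introns of at least 20 kb included those of receptor, matrix and cytoskeleton genes. Bmpr1a, a BMP type I receptor, led with 22 sites in 35.2 kb, or 62.6 per 100 kb (39.2 to 94.7), against 12.1 in its later introns. Its sites ran through the intron from 4.99 to 38.2 kb from its TSS, most of them narrow, with a median of 291.5 bp and a largest of 1296 bp, and none held an AP-1 match in its central 200 bp. Fbn1, the fibrillin of elastic microfibrils, had 14 sites at 61.4 per 100 kb, from 6.31 to 26.7 kb from its TSS. Cd44, the hyaluronan receptor, had 18 at 61.0 per 100 kb, and its later introns 5 at 10.2. The others were App (61.3), Basp1 (61.2), the actin-depolymerizing factor Dstn (59.8), Cdk17 (59.0), the FGF receptor adaptor Frs2 (59.0), Plpp1 (58.1) and the microtubule plus-end protein Clasp1 (57.6). In each of the 9 with later introns to compare, later introns were less dense, and Clasp1 had the lowest value there, 5.56. As the genes were ranked by first-intron density, lower values in later introns were likely from the outset. Later introns of Dstn held only 1 site in 3.36 kb.

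Long first introns without a site formed the other end: 397 of 2025 genes with at least 20 kb eligible, 19.6%, had none. The longest was that of Ntm, a neuronal adhesion protein, with 539 kb, although its longest transcript is a retained-intron model. Cntnap2, a neurexin relative, had 0 sites in 523 kb, which allows up to 0.705 per 100 kb (exact Poisson), and 10 in 1543 kb of later introns. Fam155a, Hs3st4, Mdga2, Adarb2, the ectodysplasin gene Eda, Csmd1, the potassium channel subunit gene Dpp6 and the netrin receptor gene Unc5d also had none in 308.5 to 465 kb. Mdga2, Eda and Unc5d nonetheless had a site within 1 kb of their TSS, and the other 7 had not.

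In the pooled set, the mark at the promoter went with the mark in the first intron. The study reports that H3K4me1 gains after ASH2L loss lay nearly all at promoters. A site at a TSS may therefore rest on dTAG-treated cells only. Among 5537 genes with an H3K4me1 site within 1 kb of the TSS of the longest transcript, 59.8% (58.5 to 61.1%) had a first-intron site, against 23.2% (21.3 to 25.2%) of 1787 genes without one. Density was 12.7 sites per 100 kb in the first and 3.28 in the second, and in later introns 7.61 and 3.34. The ratio of first to later introns was thus 1.67 (1.63 to 1.70) where the TSS was marked and 0.982 (0.916 to 1.05) where it was not. The difference between these ratios was not tested. At matched length the order was the same: 27.6% against 9.54% at 1 to 5 kb, 71.8% against 28.5% at 10 to 20 kb, and 88.6% against 50% at over 100 kb.

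CpG islands, the CG-rich stretches at many broadly used promoters, were also examined at these TSSs. Genes with an island within 1 kb had 12.2 first-intron sites per 100 kb and the others 6.68, with 60.1% and 33.2% of genes holding a site. Among the 289 genes with an island but no H3K4me1 site at the TSS, the first intron held 1.16 sites per 100 kb, less than the 4.28 of genes with neither. The share of genes with a site differed little, at 21.1% (16.8 to 26.2%) and 23.6% (21.5 to 25.8%). Median eligible lengths were unlike, at 11.9 and 5.81 kb, and these densities were not matched for length. In the class with an island only, first introns were less dense than later ones, with a ratio of 0.741 (0.606 to 0.907). The ratio was 1.71 (1.67 to 1.75) with both, 1.38 (1.30 to 1.46) with a site only and 1.06 (0.987 to 1.15) with neither. Where a site was present, island genes had 13.4 and genes without an island 9.31 per 100 kb. Of the sites themselves, 101 members (0.575%) overlapped an island, and 0.274% of later-intron sites did. Centres had to lie over 3 kb from every TSS, so low shares follow in part from the rule. No background share was set beside them.

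Gene lists for fibroblast functions and for other cell types were then compared with the 50.9% of all first introns that held a site, or the 80.4% of those with at least 20 kb eligible. The lists were chosen with earlier results of these data known, and their members differ in intron length from the median of 8.86 kb over all genes. Density over all genes tested was 10.7 sites per 100 kb, and the median gene had 1.87. Over all later introns it was 6.55. Several lists were dense in later introns too, with 21.2 for actin, 20.6 for mesenchymal, 19.2 for AP-1 and Hippo and 12.5 for TGF-beta genes. Their high density was thus not particular to first introns.

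Actin cytoskeleton and focal adhesion genes had a site in 21 of 22 first introns, including 14 of 14 with at least 20 kb, and 27.8 sites per 100 kb (median 25.8), with 45.5% of bases covered. Their median eligible length was 32.9 kb. Cald1, the actin- and myosin-binding caldesmon, held 31 sites at 56.9 per 100 kb, and its later introns 32 at 42.1. Trio held 28 at 29.9 per 100 kb and the LIM protein gene Fhl2 held 6 at 77.9. Limk2, which encodes a kinase that acts on cofilin, was the member without a site, in 5.58 kb.

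Extracellular matrix genes had a site in 16 of 20, and in 11 of 11 with at least 20 kb. Their density was 29.9 per 100 kb in first and 13.1 in later introns. Lamc1, the laminin gamma 1 chain, held 29 sites in 55.1 kb of first intron and 0 in 20.9 kb of later introns. The collagen gene Col8a1 held 19 at 25.9 per 100 kb, and Ltbp2, which encodes a latent TGF-beta binding protein, held 3 in 4.02 kb. Loxl2, a collagen cross-linking oxidase, and the proteoglycan gene Dcn had 0 in 15.4 and 8.66 kb, and no site at their TSS. The longest transcripts of Limk2 and Dcn are annotated as non-coding models.

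TGF-beta and BMP signalling genes had a site in 17 of 20, at 22.98 per 100 kb, and in 12 of 13 with at least 20 kb. Besides Bmpr1a, the ubiquitin ligase gene Smurf1 held 23 at 38.2 per 100 kb and no centre in its later introns, of which 14.7% was covered, and the ligand gene Tgfb2 held 15 at 41.4. The receptor SMAD gene Smad9 had 0 in 23.6 kb. The co-receptor gene Eng had no centre in 2.19 kb, 47.5% of which was nevertheless covered by a site centred elsewhere.

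AP-1 and Hippo pathway genes had short eligible first introns, with a median of 5.05 kb. A site was present in 10 of 12, and the density was 29.8 per 100 kb, with 58.4% of bases covered. Tead1, a DNA-binding partner of YAP, held 18 sites at 32.6 per 100 kb, and the YAP-binding protein gene Amotl1 held 6 at 40.04. The Hippo kinase gene Lats2 held 2 in 4.35 kb, whereas Lats1 held 0 in 4.03 kb and had no site in its later introns or at its TSS.

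Mesenchymal transcription factor genes had a site in 9 of 12, and in 7 of 7 with at least 20 kb, at 26.5 per 100 kb. Foxp1 held 31 at 26.3 per 100 kb and 89 at 27.9 in its later introns, so its first intron was not the denser part. Klf7 held 19 at 51.6 against 8.85, and Runx2, known for bone formation, held 3 at 44.2 against 34.6, although by covered bases the order was turned, with 29.3% of its first and 29.99% of its later introns. Nfic had no centre in 3.32 kb of which 88.2% was covered, and Nfia had neither centre nor cover in 2.00 kb.

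Genes of COMPASS subunits and H3K4 demethylases, the machinery of the mark, had a site in 7 of 11, at 18.5 per 100 kb in first and 4.09 in later introns. The H3K4 demethylase genes Kdm5b and Kdm1a held 8 and 3 sites, at 36.7 and 48.6 per 100 kb, and Kdm5b had none in 30.4 kb of later introns. Kmt2c, which encodes an H3K4 monomethyltransferase of enhancers, held 4 at 8.73. Bod1l and Dpy30 held 0 in 3.13 and 1.48 kb. The median eligible length of this list was 3.41 kb, and without Kdm5b its density was 14.4. Of the replication and mitosis genes only 4 had 1 kb or more to count in, with 9.67 kb in all, 0 centres and 7.02% of bases covered, too little for a comparison. Orc1 and Pola1 had the longest eligible first introns among them, at 2.57 and 2.50 kb.

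Lists for other cell types had lower densities than those for fibroblast functions, although the epithelial list was near the value over all genes. The 28 neuronal synapse and adhesion genes had the longest first introns, with a median of 246 kb, and 16 of them held a site, or 57.1% (39.1 to 73.5%) against the 80.4% of all genes with at least 20 kb. Their density was 1.37 per 100 kb in first and 1.43 in later introns, and 0.599% of first-intron bases were covered. All genes with over 100 kb eligible had 6.65 per 100 kb in first introns, and the densities of the lists were not matched for length. Opcml, an adhesion protein, held 31 sites at 5.22 per 100 kb, Cadm2 held 11 at 1.69 and Cdh18 held 9 at 7.20. Lymphoid and myeloid genes had a site in 10 of 24, with 7 of 11 among those of at least 20 kb, at 5.05 per 100 kb, and the thymocyte factor gene Tox held 15 of their 33 sites. Without Tox the density was 3.54. Dock10 held 3 at 3.81, and 9 at 7.64 in its later introns. Fyb held 2 at 8.85, but its later introns held 10 at 51.5. Prkcq and Arhgap15 held 0 in 36.55 and 28.75 kb of first intron, but their longest transcripts are annotated as non-coding models. Epithelial genes had a site in 6 of 9, at 10.2 per 100 kb, with a median gene of 10.6. Trp63, the epidermal p63 factor, held 5 at 7.75, and without it the density was 12.1. Grhl2 held 3 at 10.6 per 100 kb, and 0 in its later introns. Ehf held 2 at 52.6 and Spint1 held 1 at 35.5, with wide exact Poisson intervals (6.37 to 190 and 0.898 to 197.6). Elf5, whose longest transcript is annotated as a non-coding model, and Lad1 held 0.

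**Figure D4:**
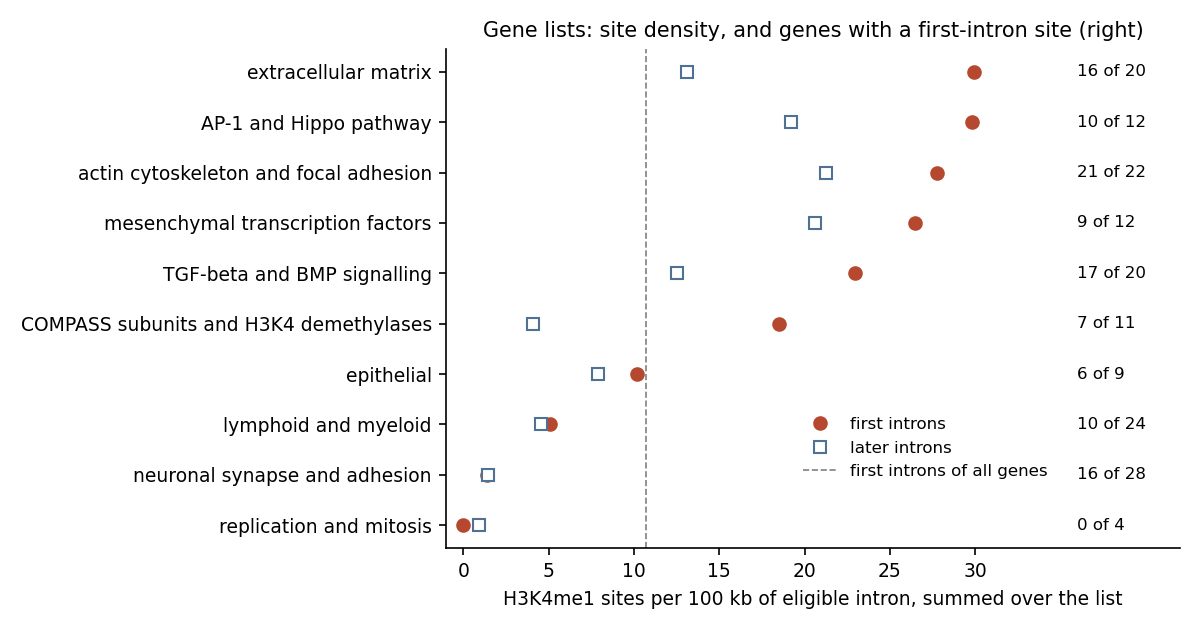
H3K4me1 sites per 100 kb of eligible intron summed over each gene list, in first (red circles) and later (open squares) introns; numbers on the right are list genes with a first-intron site, and the dashed line marks all first introns at 10.7. The actin, matrix, TGF-beta, AP-1 and Hippo, and mesenchymal lists lie between 22.98 and 29.9 and the neuronal list at 1.37.

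The centres of first-intron sites were richer in motif matches than sequence beside them. TGANTCA, the pattern used for AP-1, reads the same on both strands. It takes any base at N, so TGAATCA and TGATTCA count beside TGAGTCA and TGACTCA, and the shares were not split. This pattern was found in 11.7% (11.2 to 12.2%) of the central 200 bp windows. It was in 5.26% (4.95 to 5.59%) of windows 5 kb to either side that lay in a first intron, over 3 kb from a TSS and outside any site, a ratio of 2.23. Over all such 200 bp windows of eligible first introns outside sites the share was 5.68%. GGAATG (TEAD) was in 13.9% of centres and 9.99% of flanks, TTGGCA (NFI) in 12.6% and 9.49%, TGTGGT (RUNX) in 17.7% and 15.2%, and CACGTG (E-box) in 2.96% and 2.39%, each counted on both strands. GCGTGGGCG (EGR1) was in 7 of 17575 centres and 1 of 18605 flanks. None of these motifs contains another, although matches of different motifs can overlap. Centres were also richer in G and C, with 47.7% against 42.5% in flanks, and had less repeat-masked sequence, 18.7% against 28.5%.

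AP-1 matches were less frequent in first-intron sites than in later-intron sites, where 13.6% (13.2 to 13.9%) held one while their flanks, at 5.43%, differed little from those of first introns. The share was lower in first introns in each of 4 width classes, at 10.2% against 12.4% under 300 bp, 11.8% against 14.3% at 300 to 600 bp, 12.9% against 14.05% at 600 to 1200 bp and 11.5% against 12.9% in wider sites, and in the last 2 classes the intervals overlapped. By distance it was 10.9% (9.82 to 12.0%) against 13.2% (12.1 to 14.3%) at 3 to 5 kb and 11.1% against 13.3% at 10 to 20 kb. It was also lower at 5 to 10 kb, with 11.4% (10.56 to 12.35%) against 13.05% (12.28 to 13.86%). At 20 to 50 kb it was 12.2% (11.18 to 13.27%) against 13.8% (13.13 to 14.57%). In both of these classes the intervals overlapped slightly. From 50 kb on the order was turned, with 15.1% (13.1 to 17.5%) in first and 14.5% (13.4 to 15.8%) in later introns at 50 to 100 kb and 15.9% and 14.7% beyond, but the intervals overlapped. TEAD matches were at 13.9% (13.4 to 14.4%) against 14.9% (14.5 to 15.3%). The intervals overlapped for NFI, at 12.6% (12.1 to 13.1%) and 13.4% (13.00 to 13.7%), and for RUNX, at 17.7% (17.2 to 18.3%) and 18.03% (17.6 to 18.5%). The centres were alike in GC content, at 47.7% and 47.6%, and differed in repeat-masked bases, at 18.7% in first and 16.3% in later introns. The part of these in the AP-1 difference was not tested.

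**Figure D5:**
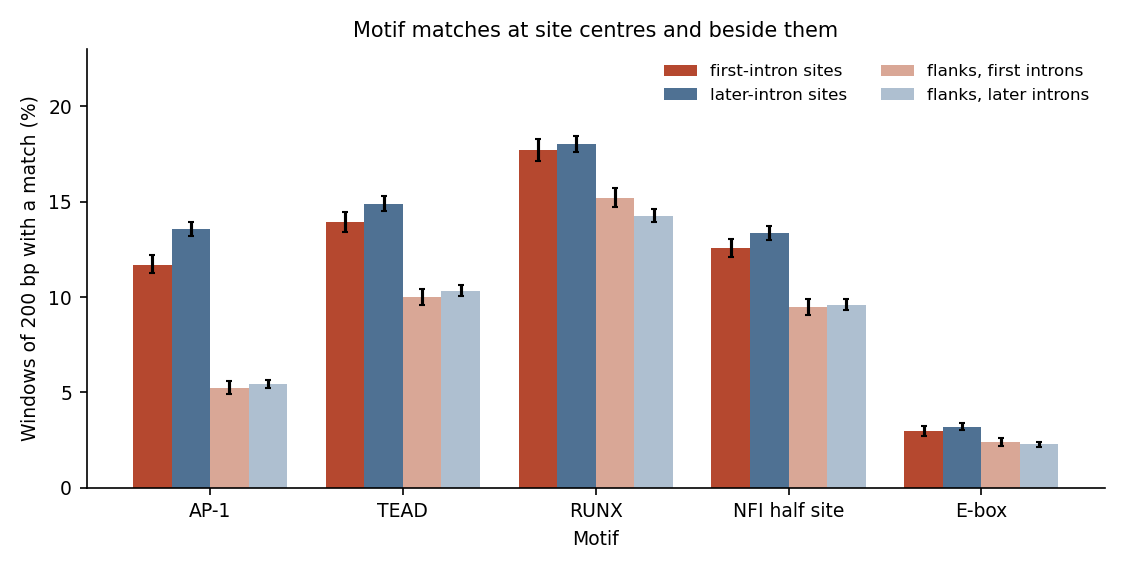
Share of 200 bp windows with a motif match, in percent, at the centres of first-intron (red) and later-intron (blue) sites and in flanks 5 kb away (pale); error bars are 95% Wilson intervals. AP-1 shows the largest step from flank to centre of the motifs drawn, from 5.26% to 11.7% in first introns, and a higher share in later introns.

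Of the members, 112 (0.637%) were centred in an exon of another annotated transcript and 2.50% in the body of a non-coding gene. Repeat-masked bases made up 29.1% of eligible first introns and 29.3% of later introns, and 18.5% of the bases in members.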

How the data were processed

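ChIP-seq reads of H3K4me1 were trimmed, mapped with BWA to mm10 and filtered with SAMtools by the authors, who merged replicates and called broad peaks with MACS2. Versions, thresholds and the way conditions were joined are not given in the sources used here. The deposited table gives the chromosome and 2 other columns, the start and end positions in bases, of each site; starts count from 0 and were raised by 1 for printing. It holds no signal, count or score, so the calling threshold and depth set how many pieces a marked stretch was split into, and a site may rest on 1 condition.

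From there, 160108 sites on chromosomes 1 to 19 and X were assigned with GENCODE M21 on GRCm38.p6, the sequence of mm10, while 36 sites on 12 scaffolds were left out. The study's methods name another GENCODE release. TSSs of all transcripts were used, and the longest transcript was taken by spliced length, which for 3257 of 21755 genes was not of protein-coding type. A base in a first intron of any gene counted as first intron. Densities are sites per 100 kb of non-N intron over 3 kb from every TSS. Intervals at 95% are Wilson for shares and, turned into ratios, for densities, Mantel-Haenszel for combined ratios and exact Poisson for single genes. CpG islands were found in repeat-masked sequence (over 200 bp, GC at least 50%, observed over expected CpG above 0.6). Genes were named by rank: the 10 with the most sites, the 10 densest with at least 20 kb, the 10 longest without a site, the 5 widest sites and, per list, the 2 leading genes by count, by density and by length without a site. Members, lists, motifs and rules were chosen with earlier results of these data known. Of the 10 windows the rule picked for printing, that of Gm20388 is not shown because its intron encloses other genes. Python 3.11.15, numpy 2.4.6, scipy 1.17.1 and numba 0.67.0 were used, and the counting was tested on simulated sites.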

Additional observations from a re-analysis of the deposited data

How the results depend on the processing

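The 7 results, the number of members, their share of intronic sites, both density ratios, the share of genes, the median width and the AP-1 share, were recomputed under 70 combinations of result and alternative, 38 of which left the value within its interval (for the number, within 1.5 times), and first introns stayed denser under each of the 28 alternatives to the density ratios. No paired analysis was possible because the deposited table holds no value per library. Counting only sites over 10 kb from every TSS left 9667 members, 30.7% of intronic sites, ratios of 1.55 and, at matched distance, 1.49, and a site in 56.99% of genes. With a 1 kb minimum these were 37.8%, a ratio of 1.74 and 49.4% of genes. Sites of at least 500 bp numbered 10180 (35.7%, ratio 1.70, 40.1% of genes). Merging sites within 1 kb left 10897 of median width 905 bp, 32.02% of intronic sites, and ratios of 1.44 and 1.40 at matched distance. Covered bases in place of sites raised the ratios to 1.87 and 1.775, and the full intron length as denominator gave 1.47. The longest transcript by genomic span gave 34.0%, 1.57 and 1.51. The share was 33.9% with TSSs of protein-coding transcripts, 36.8% for sites wholly in the intron and 34.6% outside other protein-coding genes. A central 400 bp gave AP-1 matches in 21.4% of members. Chosen after seeing the data were the exclusion of first introns over 1 Mb, with a share of 34.6%, the longest transcript of protein-coding type, and the ratios within classes of length (1.57), length and distance (1.40), gene (1.52) and gene and distance (1.503).

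The set is pooled over untreated and dTAG-treated cells of 1 clone, so no value here belongs to a time point. A site is a stretch the authors' peak caller kept apart, so counts per gene depend on how marked chromatin was divided, and covered bases are given beside counts for some genes only. First introns are those of 1 transcript per gene, and a TSS that the annotation lacks would place promoter sites among the members.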
